A study of Mus musculus with 4 samples.

Results

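Intestinal epithelial cells are specified by a small set of transcription factors, and 7 of these factors and the stem cell receptor gene Lgr5 were followed here in RNA of CD4+ T cells sorted from inflamed mouse colon. The genes were taken by symbol, and 8 of 8 were among the 16555 genes listed. Both groups consisted of Rag1-/- recipients, which make no T or B cells but keep their epithelium, stroma and myeloid cells. They were studied 6 weeks after transfer of CD4+CD25-CD45RBhi T cells, a procedure that causes colitis, and colonic CD45+CD3+CD4+ cells were sorted. In the libraries labelled CK2αfl/fldLck-Cre (dLck-Cre below) the donor cells carried floxed alleles of CK2α, the catalytic kinase subunit encoded by Csnk2a1, and a Cre transgene under the distal Lck promoter, which is active in mature T cells. In the CK2αfl/fl control libraries (fl/fl below) the donor cells carried the floxed alleles without Cre. The donor genotype thus applied to the transferred T cells, and the host epithelium had the same labelled genotype in both groups. Each group had 2 libraries, and since no label ties a library to its own animal, the p-values reflect variation among these 4 libraries, some or all of it possibly technical.

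CDX1 and CDX2 are homeobox factors that give the posterior gut its identity, and HNF4A is a nuclear receptor that drives genes of the absorptive enterocyte. KLF5 is a zinc finger factor of proliferating crypt cells, ELF3 an epithelial ETS factor, and GRHL2 a grainyhead factor that maintains epithelial junctions. ATOH1 is the basic helix-loop-helix factor that commits progenitors to the secretory lineage, and LGR5 is an R-spondin receptor that marks cycling stem cells at the crypt base. None of these genes defines a CD4+ T cell.

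Recovered reads ranged from 16777017 to 22422971 per library. The targeted gene, Csnk2a1, did not fall with dLck-Cre (2118 and 2031 normalized counts, against 1534 and 1597 in fl/fl libraries; limma, adjusted p = 0.108), and counts summed over a gene leave a deleted exon unseen, so every direction is that of the labels. T cell identity genes were abundant in every library, and Cd4 had 12615 and 13443 normalized counts in dLck-Cre libraries, against 18035 and 18818 in fl/fl libraries. Markers of the epithelium were also measured in every library. The 26 epithelial markers summed to 111192 and 151863 normalized counts in dLck-Cre libraries, against 52264 and 57135 in fl/fl libraries. The 20 T cell identity genes summed to 110954 and 103977 in dLck-Cre libraries, against 159114 and 159393 in fl/fl libraries. These are sums over lists of different genes and lengths and give no share of cells. In RNA of a whole sorted sample, a change in the number of cells of a type and a change in RNA per cell cannot be told apart.

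The sequences upstream of the transcription starts are shown for the members with a window in the RefSeq promoter table. Of the 8 members, 4 had such a window. A further Hnf4a window began inside an annotated exon of the gene and was not searched. Each run is the part of the 250 bases before the RefSeq start that lies outside every exon annotated for the gene, 5′ to 3′ on the gene's strand, on build GRCm38.p6. Capitals mark matches, on either strand, to the motifs searched.
Cdx2 (chr5:147307271-147307499, minus strand): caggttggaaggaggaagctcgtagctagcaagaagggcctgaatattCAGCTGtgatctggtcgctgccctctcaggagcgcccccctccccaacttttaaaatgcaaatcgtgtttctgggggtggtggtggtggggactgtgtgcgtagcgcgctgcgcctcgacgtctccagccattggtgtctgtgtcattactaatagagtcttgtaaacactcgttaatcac
Hnf4a, upstream of its most distal annotated start (chr2:163506607-163506807, plus strand): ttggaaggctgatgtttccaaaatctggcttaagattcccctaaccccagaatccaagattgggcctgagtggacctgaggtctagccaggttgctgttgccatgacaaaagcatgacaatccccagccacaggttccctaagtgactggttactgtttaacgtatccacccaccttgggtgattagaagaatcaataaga
Elf3 (chr1:135258569-135258722, minus strand): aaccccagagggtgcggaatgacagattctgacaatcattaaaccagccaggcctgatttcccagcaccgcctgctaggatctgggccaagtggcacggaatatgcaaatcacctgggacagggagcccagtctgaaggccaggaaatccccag
Atoh1 (chr6:64728875-64729124, plus strand): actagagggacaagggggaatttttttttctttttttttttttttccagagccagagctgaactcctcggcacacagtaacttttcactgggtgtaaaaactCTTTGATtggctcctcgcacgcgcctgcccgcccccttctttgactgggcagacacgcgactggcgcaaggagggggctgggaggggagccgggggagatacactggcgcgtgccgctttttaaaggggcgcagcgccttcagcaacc

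The motifs were TATAAA for the TATA box, CATAAA for CDX, CAAAGTCCA for HNF4, AGATAA for GATA, AACCNGGTT for GRHL, GGGNGNGGC for KLF, CAGGAAG for ETS, ATCAAAG for TCF and CAGCTG for the ATOH1 E-box. Among these letters the Cdx2 window held a single CAGCTG, and 11.8% of all 32851 windows of that length held at least 1. The Atoh1 window held a single ATCAAAG, read on the opposite strand as CTTTGAT, and 3.21% of all windows of its length held at least 1. The TCF motif is the one bound by the nuclear effectors of WNT signalling. No match overlapped another, and the Hnf4a and Elf3 windows shown held none of the 9 motifs. A match is a description of these letters and not a binding site.

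All 8 genes had higher values in both dLck-Cre libraries than in either fl/fl library, and 5 of them, Cdx1, Cdx2, Hnf4a, Klf5 and Elf3, rose past the threshold in the fit across all genes (limma, adjusted p under 0.05). Grhl2, Atoh1 and Lgr5 did not pass. edgeR called the same 5 genes, with 5.83% of all genes higher, and DESeq2 these and Grhl2, with 9.67% of the 13932 genes that it gave an adjusted p. The log2 differences of the 8 genes lay between 0.88 and 1.42, with a median of 1.13, against a median of -0.02 over the 16490 genes tested. Of all genes tested, 5.75% were called higher and 1.22% lower, and the libraries of the groups did not overlap, with dLck-Cre higher, for 27.7%. Summed, the 8 genes took 0.0461% and 0.0518% of the normalized total in dLck-Cre libraries, against 0.0187% and 0.0215% in fl/fl libraries. All 8 had a mean of at least 10 normalized counts and entered the test.

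**Figure D1:**
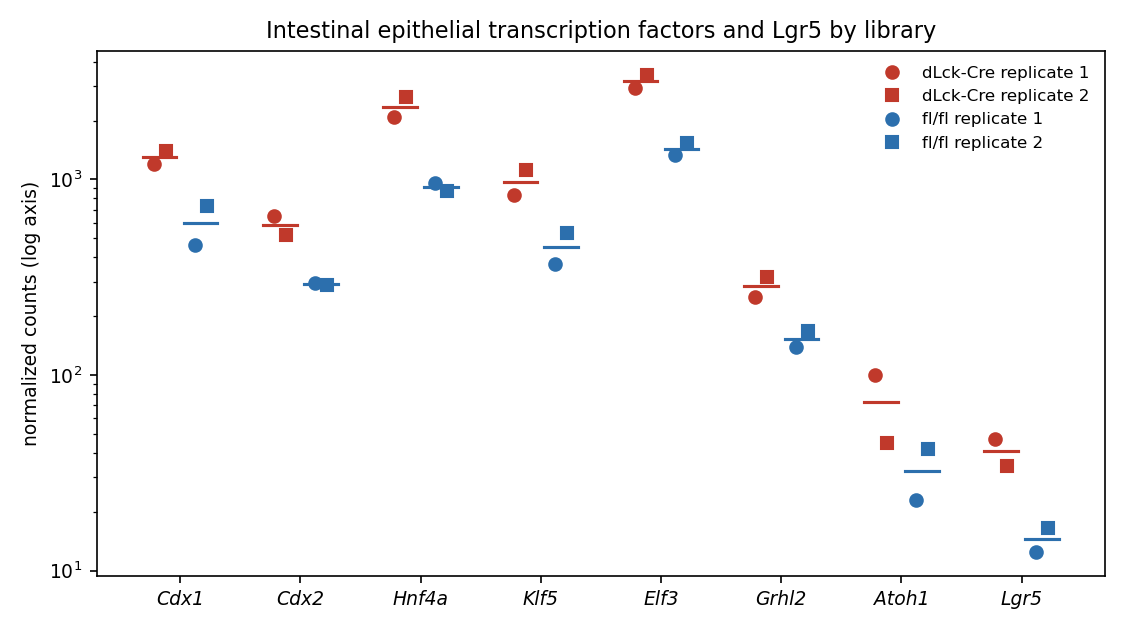
Normalized counts (log axis) of the 8 genes in each library, dLck-Cre in red on the left of each pair and fl/fl in blue on the right; circles are replicate 1, squares replicate 2 and bars the group means (n = 2). For each gene both dLck-Cre values lie above both fl/fl values, most narrowly for Atoh1, at 45.0 in dLck-Cre replicate 2 against 42.0 in fl/fl replicate 2.

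The homeobox factors of gut identity were both higher. Cdx1, which lies on chromosome 18, had 1204 and 1404 normalized counts in dLck-Cre libraries, against 460 and 735 in fl/fl libraries. The dLck-Cre libraries were close to each other, while the fl/fl libraries stood 1.59-fold apart. The log2 difference was 1.16 ± 0.23 (SE; limma, adjusted p = 0.0330). Cdx2 (chromosome 5, 147300805 to 147307270, minus strand, GRCm38) had 650 and 522 normalized counts in dLck-Cre libraries, against 294 and 289 in fl/fl libraries. Here the fl/fl libraries were nearly equal, and the spread lay in the dLck-Cre pair, with replicate 1 the higher. Its log2 difference was 1.00 ± 0.18 (SE; limma, adjusted p = 0.0270). The ratio of Cdx1 to Cdx2 counts was 1.85 and 2.69 in dLck-Cre libraries, against 1.57 and 2.54 in fl/fl libraries, so that the replicates of a group differed more than the groups did. Without dLck-Cre replicate 1 the Cdx2 difference was 0.84 and did not pass (limma, adjusted p = 0.0540).

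Hnf4a, which encodes the enterocyte nuclear receptor, had the largest difference of the 5 called genes. It (chromosome 2, 163506808 to 163572910, plus strand) had 2074 and 2642 normalized counts in dLck-Cre libraries, against 958 and 869 in fl/fl libraries. Even the lower dLck-Cre library stood well above either fl/fl library. The group means were 2358 ± 402 in dLck-Cre libraries and 914 ± 62.8 in fl/fl libraries (SD, n = 2 each), which differed by 1.36 ± 0.16 on the log2 scale (SE; limma, adjusted p = 0.0195). The ratio of Hnf4a to Cdx2 counts was 3.19 and 5.06 in dLck-Cre libraries, against 3.26 and 3.00 in fl/fl libraries, so that it was set apart in dLck-Cre replicate 2 alone.

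Of the 3 factors of epithelial growth and junctions, Klf5 and Elf3 rose and Grhl2 did not pass the test. Elf3 (chromosome 1, 135253575 to 135258568, minus strand) had 2928 and 3435 normalized counts in dLck-Cre libraries, against 1334 and 1536 in fl/fl libraries. Replicates lay close together in both groups, and the log2 difference was 1.15 ± 0.15 (SE; limma, adjusted p = 0.0195). An antisense gene whose exons overlap Elf3, Gm26642, had 40.8 and 36.8 normalized counts in dLck-Cre libraries, against 28.1 and 28.7 in fl/fl libraries, and strand use in counting is not given in the sources used here. Klf5 (chromosome 14, 99298691 to 99315036, plus strand) had 829 and 1116 normalized counts in dLck-Cre libraries, against 371 and 535 in fl/fl libraries. Its replicates were less even, 1.35-fold apart in dLck-Cre and 1.44-fold apart in fl/fl libraries. The log2 difference of Klf5 was 1.11 ± 0.23 (SE; limma, adjusted p = 0.0345), and without fl/fl replicate 1 it was 0.85 (limma, adjusted p = 0.0628; edgeR, adjusted p = 0.0414).

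Grhl2 (chromosome 15, 37233036 to 37363569, plus strand) had 252 and 316 normalized counts in dLck-Cre libraries, against 138 and 168 in fl/fl libraries. The groups did not overlap, and its log2 difference of 0.88 ± 0.22 (SE) was the smallest of the 8 (limma, adjusted p = 0.0574; edgeR, 0.0541; DESeq2, 0.0212). The call for Grhl2 thus depended on the tool. Its antisense neighbour Gm16136, which shares exonic bases with it, had 13.6 and 18.8 normalized counts in dLck-Cre libraries, against 4.16 and 9.94 in fl/fl libraries.

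The lineage factor and the stem cell receptor were measured with few reads. Atoh1 (chromosome 6, 64729125 to 64731245, plus strand) had 96 and 55 recovered reads in dLck-Cre libraries, against 22 and 38 in fl/fl libraries. In normalized counts these were 100 and 45.0 in dLck-Cre libraries, against 22.9 and 42.0 in fl/fl libraries. The dLck-Cre libraries stood 2.20-fold apart, the widest replicate gap among the 8 genes, and 1 of them was almost level with fl/fl replicate 2. The log2 difference of 1.09 ± 0.48 (SE) did not pass (limma, adjusted p = 0.220), and it was 0.52 without dLck-Cre replicate 1 and 1.66 without dLck-Cre replicate 2. Lgr5 (chromosome 10, 115450311 to 115587780, minus strand) rested on 45 and 42 reads in dLck-Cre libraries, against 12 and 15 in fl/fl libraries, or 47.0 and 34.4 normalized counts against 12.5 and 16.6. It had the largest log2 difference of the 8, 1.42 ± 0.41 (SE), with a 95% interval of 0.46 to 2.39, and did not pass (limma, adjusted p = 0.0873).

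The 5 limma calls depended on keeping dLck-Cre replicate 2, although the Cdx2 difference was larger without it, at 1.15. Without that library limma called 0 of the 8 genes (adjusted p between 0.0518 and 0.222 over the 8, all 8 at an unadjusted p under 0.05), and edgeR called 1, Hnf4a (adjusted p = 0.0457). The log2 differences were then 0.72 to 1.66, and over all genes limma called only 9 higher and 8 lower. With 2 libraries in each group an exact permutation test of a single gene cannot give a p under 0.333, so that the calls depend on the spread shared across genes. When the shared spread was estimated without the trend on expression, limma called 0 of the 8 genes (7 at an unadjusted p under 0.05) and 0 of all genes.

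**Figure D2:**
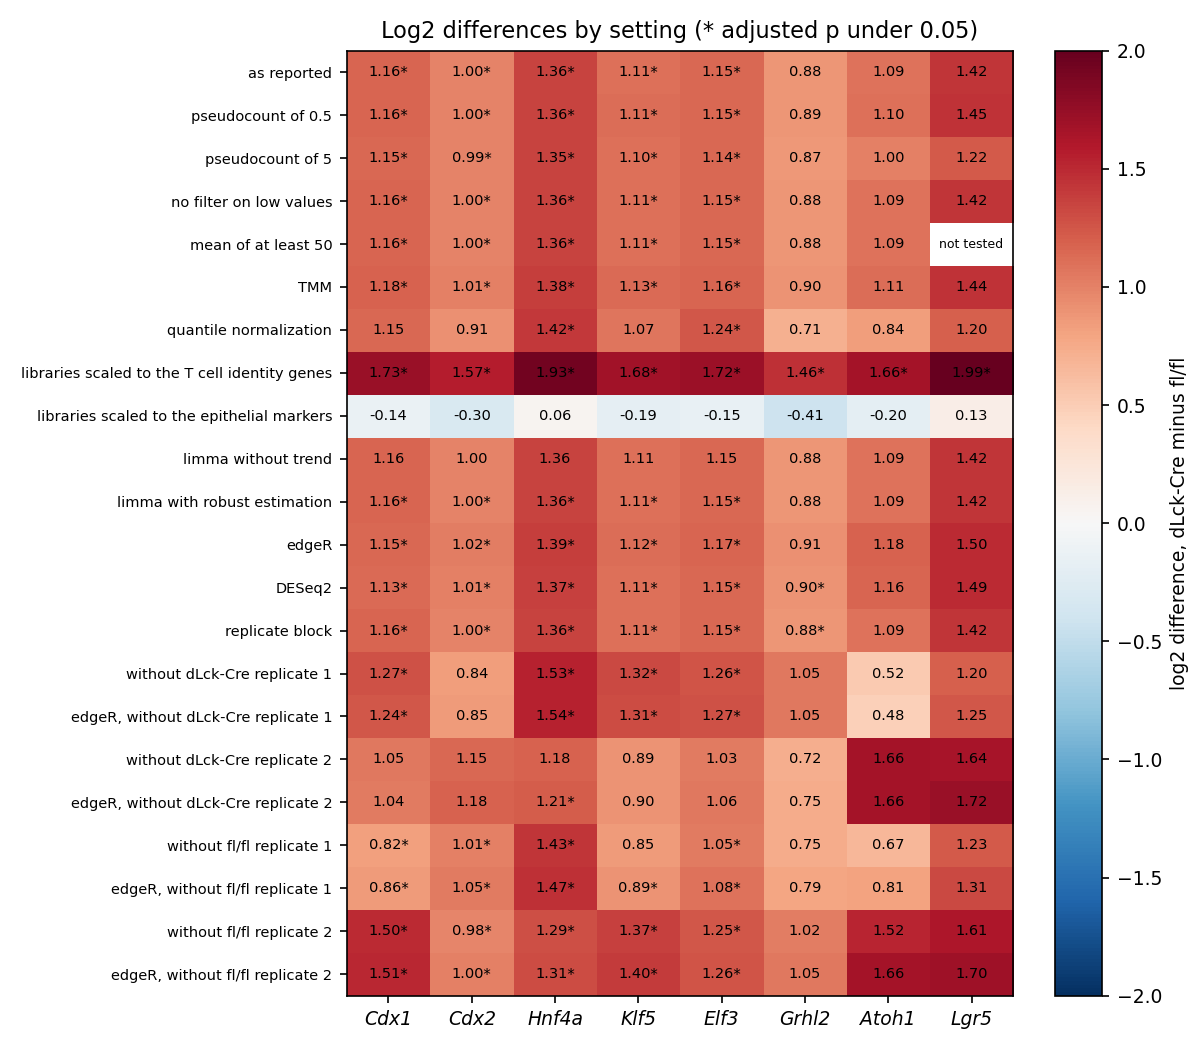
Log2 differences (dLck-Cre minus fl/fl) of the 8 genes under each setting, one row per setting; colour gives the size and an asterisk an adjusted p under 0.05. The differences stay above 0 in each row except that of libraries scaled to the epithelial markers, where 6 of 8 lie below 0 and none passes, and no asterisk is left without dLck-Cre replicate 2 under limma.

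Levels per kilobase of annotated exon gave the factors the same order at the top in both groups. Elf3 was highest, at 1435 ± 162 normalized counts per kilobase in dLck-Cre libraries and 647 ± 64.1 in fl/fl libraries (SD, n = 2 each). Cdx1 followed at 745 ± 80.7 in dLck-Cre libraries and 341 ± 111 in fl/fl libraries, then Hnf4a at 488 ± 83.3 in dLck-Cre libraries and 189 ± 13.0 in fl/fl libraries. Cdx2 came next at 259 ± 40.0 in dLck-Cre libraries and 129 ± 1.47 in fl/fl libraries, and then Klf5 at 187 ± 39.0 in dLck-Cre libraries and 87.1 ± 22.2 in fl/fl libraries. The libraries of neighbouring genes in this order did not overlap within either group. Grhl2 and Atoh1 could not be ordered, since Grhl2 stood at 29.2 and 36.7 per kilobase and Atoh1 at 47.3 and 21.2 in dLck-Cre libraries, against 16.0 and 19.5 for Grhl2 and 10.8 and 19.8 for Atoh1 in fl/fl libraries. Lgr5 was lowest at 3.97 ± 0.87 in dLck-Cre libraries and 1.41 ± 0.28 in fl/fl libraries (SD, n = 2 each). Exon length was the union over annotated transcripts, so a gene used through a short isoform is set too low.

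The 8 genes were next set against markers of the epithelium as a whole. These 26 markers, among them the adhesion gene Epcam, the mucin gene Muc2 and the claudin gene Cldn7, hold none of the 8 genes, and 23 of 26 rose, with 0 lower and a median log2 difference of 1.30. Epcam had 7325 and 9441 normalized counts in dLck-Cre libraries, against 3178 and 3495 in fl/fl libraries. Muc2 had 7160 and 7258 in dLck-Cre libraries, against 2840 and 3165 in fl/fl libraries. Cldn7 had 3223 and 3968 normalized counts in dLck-Cre libraries, against 1267 and 1554 in fl/fl libraries. The sum of the 8 genes was 7.27% and 6.27% of the summed epithelial markers in dLck-Cre libraries, against 6.87% and 7.33% in fl/fl libraries, so that the groups overlapped in this ratio.

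When each library was scaled to the epithelial markers, 0 of the 8 genes passed in either direction (limma; 0 at an unadjusted p under 0.05), while 0.194% of all genes were called higher and 74.0% lower and the median of all genes moved to -1.32. The differences were then between -0.41 for Grhl2 and 0.13 for Lgr5. Hnf4a differed by 0.06 with a 95% interval of -0.60 to 0.73, Elf3 by -0.15 (-0.80 to 0.51) and Cdx1 by -0.14 (-0.82 to 0.55). Cdx2 differed by -0.30 (-1.01 to 0.41) and Klf5 by -0.19 (-0.88 to 0.50). The intervals of these 5 genes reach at least 0.41 on both sides of 0, so this fit did not exclude a difference of that size relative to the markers. Their width draws on the spread shared across all genes under this scaling and is not the spread of the gene itself. Hnf4a stood at -0.30 and -0.43 log2 units from the marker mean in dLck-Cre libraries, against -0.33 and -0.53 in fl/fl libraries. Relative to the markers Grhl2 alone of the 8 did not overlap between groups. It stood at -3.34 and -3.49 log2 units from the marker mean in dLck-Cre libraries, against -3.12 and -2.89 in fl/fl libraries, and its interval was -1.16 to 0.34. How many of all genes did not overlap under this scaling was not counted, so this is not read as a result about Grhl2. Atoh1 differed by -0.20 (-1.11 to 0.70). When libraries were scaled to the T cell identity genes, which moved the median of all genes to 0.55, all 8 passed, at 1.46 to 1.99, as did 37.1% of all genes in that direction.

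**Figure D3:**
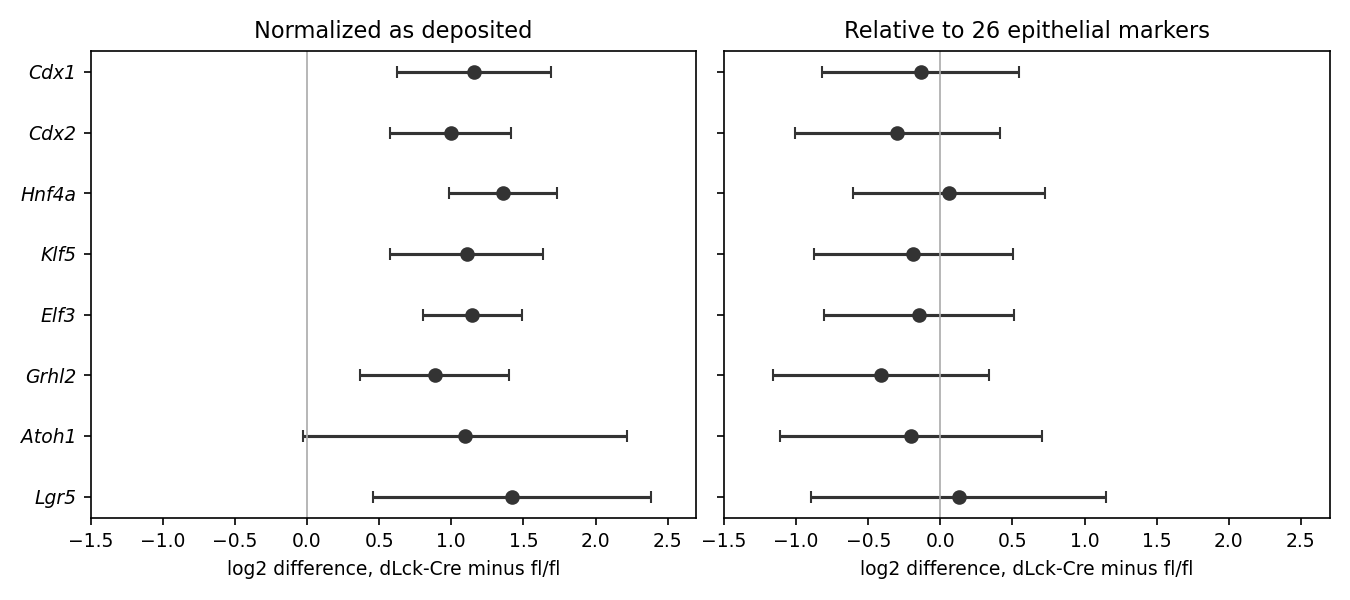
Log2 differences (dLck-Cre minus fl/fl) of the 8 genes with 95% intervals from limma, normalized as deposited on the left and relative to the 26 epithelial markers on the right. On the left the points lie between 0.88 and 1.42; on the right they lie between -0.41 and 0.13 and each interval spans 0.

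Other transcription factors of the intestinal epithelium rose in part. Of 42 listed, 33 were in the table and 32 were tested, of which 13 rose, 1 fell and 18 did not pass, at a median log2 difference of 1.09. Relative to the epithelial markers 0 were higher and 3 lower, where 0.194% of all genes were called higher and 74.0% lower. Hnf4g, the paralogue of Hnf4a, had 170 and 164 normalized counts in dLck-Cre libraries, against 50.9 and 54.1 in fl/fl libraries, and differed by 1.65 ± 0.25 (log2, SE; limma, adjusted p = 0.0197). The epithelial ETS factor gene Ehf, the bile acid receptor gene Nr1h4 and the vitamin D receptor gene Vdr rose by 1.19, 1.34 and 1.43 on the log2 scale. The gene that fell was Gfi1, a zinc finger repressor that acts in secretory cells of the gut and also in T cells, with 277 and 181 normalized counts in dLck-Cre libraries, against 420 and 502 in fl/fl libraries (limma, adjusted p = 0.0480; edgeR, adjusted p = 0.0554; DESeq2, adjusted p = 0.0048). It was named after its value was seen.

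Most of the tested genes known as targets of CDX2 and HNF4A passed the test. Of 28 listed, 21 were in the table and tested, and 15 rose, 0 fell and 6 did not pass, with a median log2 difference of 1.30. Myo1a and Vil1, which build the brush border, rose by 1.23 and 1.32, the galectin gene Lgals4 by 1.13 and the glucose transporter gene Slc5a1 by 1.21. Vil1 had 3362 and 4740 normalized counts in dLck-Cre libraries, against 1585 and 1607 in fl/fl libraries. Of 23 target and partner genes of GRHL2, ELF3 and KLF5, 15 rose, 1 fell and 7 did not pass, at a median of 1.16. Those with the lowest p-values were Epcam, Cldn7, the protease inhibitor gene Spint1 (1.20) and the epithelial adaptor gene Ap1m2 (1.33). The gene that fell was Tgfbr2, a transforming growth factor receptor gene that T cells also express, with 4916 and 4466 normalized counts in dLck-Cre libraries, against 7575 and 7650 in fl/fl libraries (limma, adjusted p = 0.0283). It too was named after its value was seen. Relative to the epithelial markers 0 genes of either list were higher, and 1 of the 21 and 4 of the 23 were lower, against 74.0% of all genes under that scaling. Both lists hold genes that are themselves epithelial markers, such as Vil1 and Lgals4 among the 21 and Epcam and Cldn7 among the 23. The scaling removes the mean difference of the markers, so for such genes these counts were partly fixed in advance.

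Some genes downstream of ATOH1 in secretory cells passed the test, and Atoh1 itself did not. Of 24 listed, 19 were tested, and 8 rose, 1 (Gfi1) fell and 10 did not pass, at a median of 1.15. The mucus genes Muc2, Tff3 (1.40), Agr2 (1.20) and Fcgbp (1.33) were among those that rose. Tff3, a trefoil factor gene, had 716 and 985 normalized counts in dLck-Cre libraries, against 351 and 287 in fl/fl libraries. Stem cell and WNT genes moved less evenly. Of 30 listed, 21 were tested, of which 6 rose, 0 fell and 15 did not pass, and 15 of 21 lay above 0, at a median of 0.71. The water channel gene Aqp4 (1.01), the LGR5 homologue gene Lgr4 (1.02), the prominin gene Prom1 (0.86) and the ephrin receptor gene Ephb2 (1.09) rose. Smoc2 and Axin2 of the same list lay below 0, at -0.62 and -0.47, and did not pass (limma, adjusted p = 0.180 and 0.175). Both were named after their values were seen. Lgr4 had 887 and 839 normalized counts in dLck-Cre libraries, against 440 and 410 in fl/fl libraries. Relative to the epithelial markers 1 of the 19 secretory genes and 8 of the 21 stem cell genes were lower, against 74.0% of all genes, and 0 of either were higher. Muc2, Tff3 and Agr2 of the secretory list are themselves among those markers. Like the calls of the 8 genes, the counts of genes that rose in these lists depended on keeping dLck-Cre replicate 2. Without it limma called 1 epithelial marker and 2 secretory genes higher and 0 genes of the other transcription factors, of either target list and of the stem cell list. edgeR then called 8 epithelial markers, 3 secretory genes, 1 of the other transcription factors, 2 targets of CDX2 and HNF4A, 5 of GRHL2, ELF3 and KLF5 and 0 stem cell genes. The stem cell count also turned on the fl/fl libraries, being smaller without replicate 1 and larger without replicate 2 (limma). Whether the lists differ from each other was not tested, and several genes stand on more than 1 list.

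**Figure D4:**
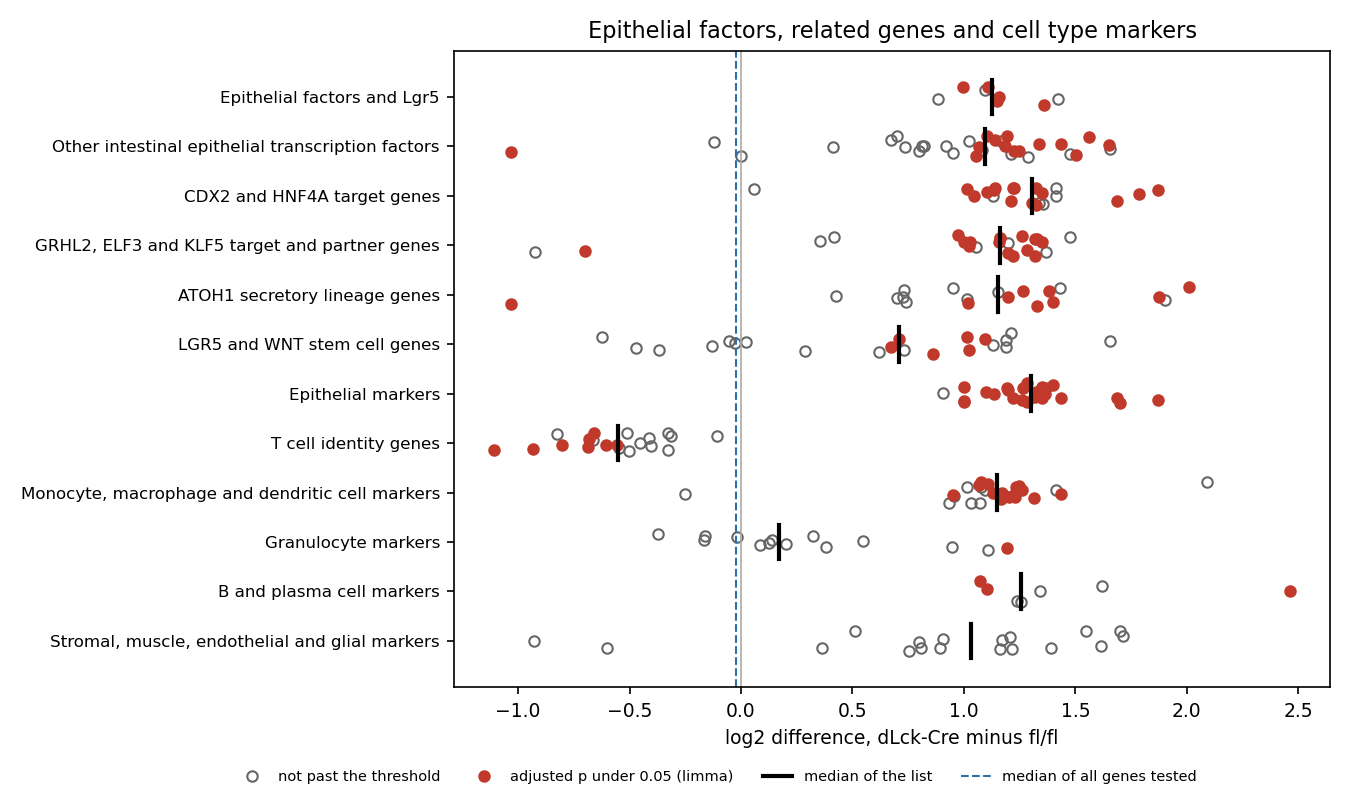
Log2 differences (dLck-Cre minus fl/fl) of the tested genes of each list; filled points passed limma's test (adjusted p under 0.05), open points did not, black bars are list medians and the dashed line is the median of all genes tested (-0.02). The epithelial lists have medians between 0.71 and 1.30, and the T cell identity genes a median of -0.55.

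Markers of other cells moved in the same libraries, and their part in these results was not tested. Over all genes tested, limma called 5.75% higher and 1.22% lower. Among the 26 markers of monocytes, macrophages and dendritic cells, 16 rose and 0 fell, at a median of 1.15, and their sum was 95365 and 84429 normalized counts in dLck-Cre libraries, against 51100 and 31318 in fl/fl libraries. Fewer of these markers passed when either dLck-Cre library was left out (limma). Il1b, Cd14 and Fcgr3 rose by 1.31, 1.22 and 1.44. Of 20 T cell identity genes, 8 fell and 0 rose, at a median of -0.55, with Ubash3a at -0.68, Cd5 at -1.11 and Cd28 at -0.93. That count was 3 without fl/fl replicate 1, 2 without fl/fl replicate 2 and 0 without dLck-Cre replicate 2 (limma), and with all libraries it was 0 under quantile normalization, 0 in limma without the trend and 13 in DESeq2. Of 14 granulocyte markers tested, 1, Csf3r (1.19), was called higher. That is 7.14% of the list, near the share of all genes, and is not read as a result about granulocytes. Kit differed by 0.95 (limma, adjusted p = 0.0830). The count of granulocyte markers was larger without dLck-Cre replicate 1 or fl/fl replicate 2, and smaller without dLck-Cre replicate 2 (limma). The granulocyte sum was 6907 and 8008 in dLck-Cre libraries, against 4440 and 9294 in fl/fl libraries, so that the groups overlapped. Of 14 B and plasma cell markers, 7 were in the table, and 3 rose, Sdc1 (1.10), which epithelium also expresses, Igkc (2.46) and Blnk (1.07). Without dLck-Cre replicate 2 the count was 0 (limma and edgeR). The sum of these markers was 2246 and 2687 in dLck-Cre libraries, against 1064 and 1137 in fl/fl libraries. The defining markers Ms4a1 and Pax5 were not among the listed genes. Igkc rested on few reads, 123 and 146 in dLck-Cre libraries, against 14 and 29 in fl/fl libraries. Of 18 stromal, muscle, endothelial and glial markers tested, limma and edgeR called 0 and DESeq2 called 1 (8 had an unadjusted p under 0.05 in limma). Their median log2 difference was 1.03, and 16 of the 18 lay above 0, Myh11 at 1.72 among them, while Pecam1 lay at -0.60. The number of stromal markers called higher was larger without fl/fl replicate 1 (limma). The stromal sum was 3453 and 4611 in dLck-Cre libraries, against 4384 and 2017 in fl/fl libraries.

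The genes whose profile over the 4 libraries was most like that of each member were found by the root mean square difference of centred log2 values. The closest were Mpzl2 to Cdx1 (0.016), Mgst1 to Cdx2 (0.030), Lrp1 to Hnf4a (0.034), Spink1 to Klf5 (0.030) and Nckap1 to Grhl2 (0.019). For Atoh1 the closest was Snhg18, at 0.089, and for Lgr5 it was Cyp27a1, at 0.047. The next for Cdx1 were Ano9 and Atp6v0a1, for Cdx2 Fam114a1, for Hnf4a Pls1 and Tspan8, and for Klf5 Ptprd and Tle1. Tmem45b and Arhgef28 were among the 3 closest to Elf3. The next for Grhl2 were Shisa2 and Clip2, for Atoh1 Klra8 and Hoxd8, and for Lgr5 Apobec2 and Hoxa9. Of these genes only Tspan8 stood on any of the gene lists, that of epithelial markers. Among the members themselves Cdx1 and Klf5 were closest (0.093) and Hnf4a and Atoh1 farthest apart (0.65). Over 4 libraries of 16490 genes such likeness is a description.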

How the data were processed

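Sorted colonic CD4+ T cells were profiled by RNA sequencing in 4 libraries, 2 per group, deposited as 1 table. The submitters' processing notes name the build mm10, and neither the aligner nor the counter with its strand setting and annotation is given in the sources used here. Judged by the name and values of the deposited table, its signal is the count per gene after the authors' division by a size factor for each library: 100% of values in each library were whole multiples of 1 step (tolerance 1e-06), which gave back whole reads.

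Values were tested as log2(value + 1), so that fold changes of low genes are understated, with limma 3.58.1 (trend) in R 4.3.3 on the 16490 genes with a mean of at least 10, and adjusted by Benjamini-Hochberg over all of them. edgeR 4.0.16 and DESeq2 1.42.0 on the recovered reads called 962 and 1347 genes higher and 171 and 421 lower. The fits were tested on simulated data. Replicates of a group differed beyond sampling noise (chi-square per gene 34.5 in dLck-Cre and 24.5 in fl/fl libraries). Between groups it ran from 34.5, for dLck-Cre replicate 1 against fl/fl replicate 1, to 82.5, for dLck-Cre replicate 2 against fl/fl replicate 1. This statistic grows with the number of reads, and depth differed between libraries, so its values do not rank the distances between them. Exon lengths and coordinates came from GENCODE vM21 (GRCm38, the assembly of mm10), and 8 of 8 members matched. Promoter sequences are from RefSeq. Figures were drawn with matplotlib 3.10.9.

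The members, gene lists, motifs and tests were chosen with earlier results of these data known, so no list is independent support. Named genes were the members, up to 4 genes of each pathway list and up to 3 of each marker list by p-value, the 3 closest profiles per member (predicted gene names passed over; some genes are not reported here) and Csnk2a1; overlapping antisense genes were added. Alternatives were other pseudocounts, filters, scalings and limma settings, edgeR and DESeq2, a block for the replicate number, and leaving out each library in limma and edgeR. Intervals of limma are at 95%, and no interval covers more than the spread of 2 libraries a group.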

Additional observations from a re-analysis of the deposited data

How the results depend on the processing

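Outside the scaling to epithelial markers, all 8 genes kept a positive difference under every alternative that tested them. That scaling subtracts the mean of the markers by construction. It brought Hnf4a to 0.06 and Lgr5 to 0.13, with intervals that span 0. It turned Cdx1 to -0.14, Cdx2 to -0.30, Klf5 to -0.19, Elf3 to -0.15, Grhl2 to -0.41 and Atoh1 to -0.20. That scaling called 0 of the 8 genes higher, and 32 genes higher and 12207 lower in all. Scaling to T cell identity genes called 8 of the 8 higher, and 6112 genes higher and 46 lower in all. Quantile normalization called 2, Hnf4a and Elf3, and 284 genes higher and 57 lower in all. limma without the trend called 0 of the 8 and 0 genes in either direction (3443 at an unadjusted p under 0.05). DESeq2 called 421 genes lower. The cause of these changes was not tested.

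Leaving out 1 library gave between 0 and 5 of the 8 called, 9 to 981 genes higher and 8 to 309 lower with limma, and 1 to 5 of the 8, 58 to 1055 higher and 13 to 261 lower with edgeR; the lowest counts were those without dLck-Cre replicate 2. The numbers of the replicates pair no samples by the labels, and the replicate 1 deviations of the groups correlated across genes at r = 0.11. With the replicate number as a block limma called 1476 genes higher and 620 lower and 6 of the 8, Grhl2 being added (adjusted p = 0.0264). Lgr5 could not be tested at a mean of at least 50. Atoh1 and Lgr5 had few reads, 12 to 96 per library. Atoh1 also had the widest replicate gaps of the 8 genes, 2.20-fold in dLck-Cre and 1.80-fold in fl/fl libraries.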
